A study of Mus musculus with 12 samples.

Results

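Chemokines, interleukins and their receptors were followed in mouse ovaries as 83 genes of the 10949 tested. Members were the genes whose platform symbol starts with Ccl, Cxcl, Ccr, Cxcr or Il and a digit, or with Cx3c, without Il6st, and each gene was read by its brightest probe set on average. They comprised 15 CC chemokine ligands, 11 CXC and CX3C chemokine ligands, 12 chemokine receptors, 22 interleukin ligands and antagonists, and 23 interleukin receptors. Expression was measured on arrays in 12 female mice of about 23 weeks at diestrus, 1 array per ovary sample. The 6 controls carried Pgrcre/+ and had no tumor. The other mice were Pgrcre/+PgrBLsL/+, with 3 ovaries labelled tumor stage I and 3 labelled stage II. All 12 mice therefore carried a Pgrcre allele, and what defines a stage is not given in the sources used here. Allele and tumor coincided in every mouse, so their effects cannot be told apart.

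Chemokines are small secreted proteins that guide leukocytes through G protein-coupled receptors, and most receptors take several ligands. Interleukins signal through cytokine receptors coupled to JAK kinases and STAT factors, or, in the IL-1 and IL-17 families, through adaptors that end in NF-kappaB. In the ovary both families are known for recruiting macrophages and other leukocytes around ovulation, luteal regression and tissue repair.

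Values are the deposited log2 levels, and differences are between group means of log2 levels, with the standard error (SE) of 1 limma model over all arrays. A gene was called when its Benjamini-Hochberg adjusted p over all 10949 genes was under 0.05. The labels call the arrays bioreplicates, and nothing else tells how the mice were related. Pgr, which the labels' allele concerns, had a level of 4.20 ± 0.28 SD over the 6 controls, 9.15 ± 0.12 over the 3 stage I arrays and 9.94 ± 0.16 over the 3 of stage II. The tissue markers Inha and Zp3, of granulosa cells and oocytes, had mean levels of 13.44 and 9.29 in controls. Control replicates 1 and 4 stood apart from the other controls on the second principal component, and stage II replicate 3 lay farthest out on the first, which held 55.2% of the variance. Calls of the 83 genes that ended without 1 of these arrays are given as such. The list genes named were refitted without stage II replicate 3 and without control replicates 1 and 4 together, alternatives added after the data were seen.

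Of the 83 genes, 0 were called in stage I against control, 14 in stage II against control (16.9%) and 4 in stage II against stage I (4.82%). Over all genes tested these shares were 0.192%, 21% and 12.5%, so the 83 genes were not called more often than genes at large in any of the comparisons. In stage I, 4 of the 83 and 698 of all genes had an unadjusted p under 0.05. These 4 were all among the 26 chemokine ligands and were all higher, while 414 of the 698 were higher. In stage II, 10 were higher and 4 lower than in controls, beside 9.81% and 11.2% of all genes, and after quantile normalization 7 were higher and 5 lower. The median stage II difference of the 83 was 0.00, beside -0.01 over all genes. Between stages 2 were higher and 2 lower in stage II, beside 6.54% and 5.97% of all genes, and with centred array medians 1 was higher and 2 were lower. Called higher were the chemokines Cxcl1, Cxcl9, Cxcl10, Ccl17 and Ccl5, the interleukins Il34 and Il1f9, and the receptors Il17rc, Il6ra and Il3ra. Called lower were Ccl11, Il18, Il13ra2 and Il17rd. Of the 12 chemokine receptors 0 passed the limma threshold, and 1 (Ccr1) had an unadjusted p under 0.05. Ccr1l1, Ccr3, Ccr4, Ccr7, Ccr8, Ccr9, Cxcr2 and Cxcr5 lay in the lowest 25% of mean levels (5.27 or less). Signal over background was not measured there, so their small differences do not show that these receptors stayed unchanged. Ligands made up 9 calls of 48 (18.8%) and receptors 5 of 35 (14.3%). Of the 14 calls 3 reached a 2-fold difference, namely Il34, Cxcl9 and Ccl17, with Cxcl1 just short of it. Over all genes 274 of the 2302 stage II calls did. The count of 14 became 6 without stage II replicate 3 and 9 without control replicate 2.

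**Figure D1:**
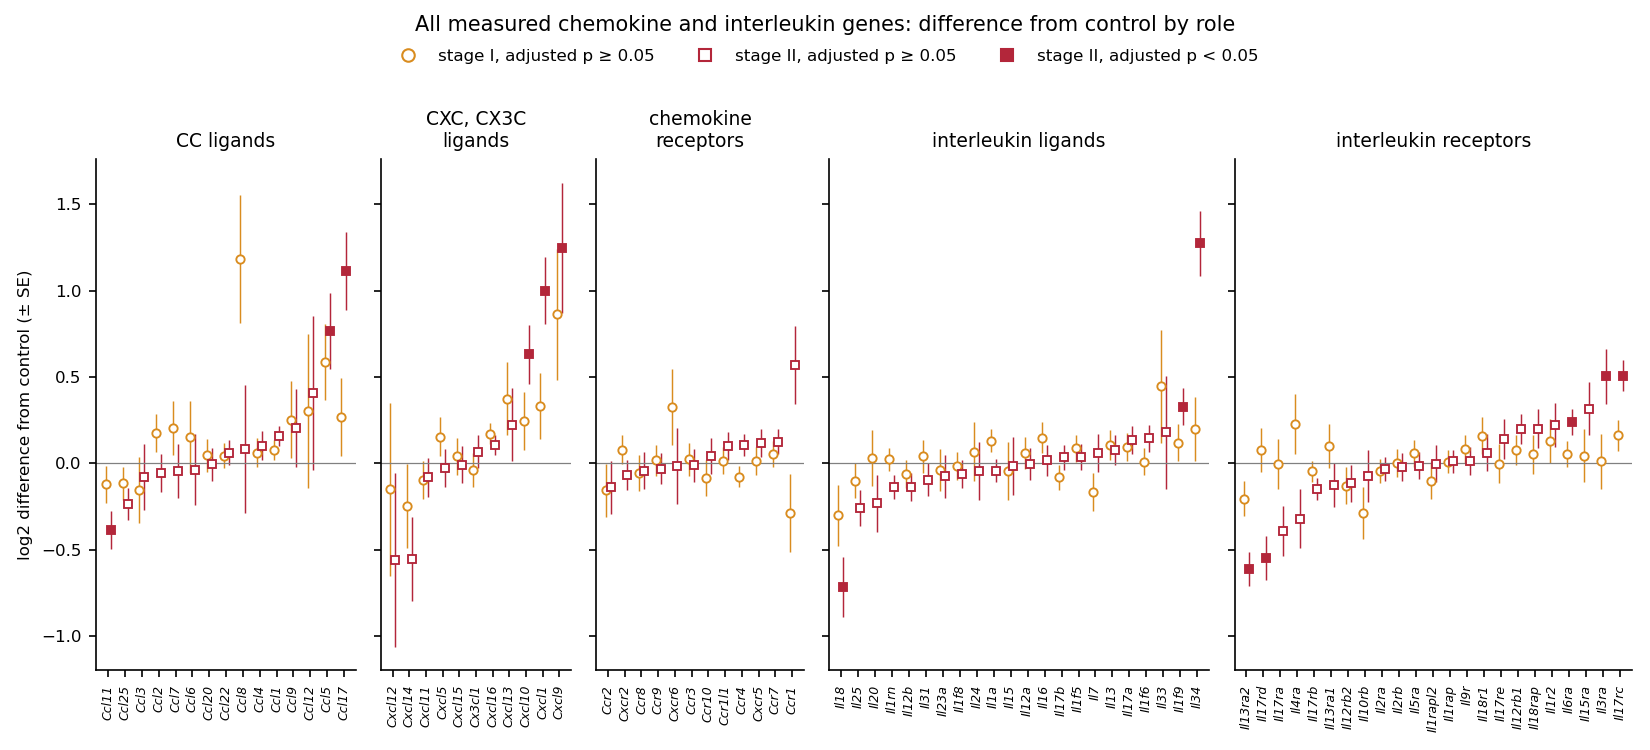
Difference from the control mean on the log2 scale with its SE for each of the 83 genes, stage I (circles) and stage II (squares), ordered within each role by the stage II value; filled squares passed the adjusted p of 0.05 in stage II. The filled squares run from -0.72 for Il18 to 1.27 for Il34, no stage I circle is filled, and the chemokine receptor panel holds no filled symbol.

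Of the 11 CXC and CX3C ligands 3 rose in stage II and 0 fell, beside 9.81% and 11.2% of all genes. Cxcl1, a neutrophil attractant, ranged from 6.44 through a median of 6.80 to 7.04 in controls. It was at 7.18, 7.52 and 6.61 in stage I and at 7.57, 7.67 and 8.07 in stage II. All stage II arrays lay above all others, and stage I overlapped the controls. The rise in stage II was 2.00-fold over control (log2 1.00 ± 0.19 SE, limma adjusted p = 0.0037), and the difference between stages was 0.67 ± 0.22 SE (adjusted p = 0.071). Without stage I replicate 2 the latter was 0.88 and passed (adjusted p = 0.043). Its receptor Cxcr2, which neutrophils carry, differed by -0.07 ± 0.09 SE from control in stage II (adjusted p = 0.63), at low levels of 4.09 to 4.52 over all arrays. The neutrophil markers gave 1 call in 6, Camp, at 0.42 ± 0.10 SE (limma adjusted p = 0.011), beside 21% of all genes called. Their summed level ran from 7.25 to 7.54 in controls and from 7.32 to 7.55 in stage II. Each marker lay below that sum, at levels where signal over background was not measured. Cxcl5, another ligand of Cxcr2, had a mean of 3.32 in controls and 3.29 in stage II, near the lowest value of the table, 2.69.

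Cxcl9 and Cxcl10, interferon-inducible ligands of the lymphocyte receptor Cxcr3, were also higher in stage II. Cxcl9 ran from 5.40 through a median of 5.68 to 6.93 in controls, with 7.27, 6.86 and 6.11 in stage I and 6.30, 7.61 and 7.48 in stage II. Control replicate 1, the highest control, lay above stage II replicate 1, so the groups overlapped. Cxcl9 differed by 0.86 from control already in stage I (limma adjusted p = 0.76) and by 0.38 between stages (adjusted p = 0.64), neither called. Its stage II difference from control was 2.37-fold (log2 1.25 ± 0.38 SE, limma adjusted p = 0.036). Removal of any 1 array among replicates 2, 3, 5 and 6 of the controls and 2 and 3 of stage II ended that call, with differences of 1.01 to 1.24 (adjusted p up to 0.17). Cxcl10 ran from 6.00 through 6.43 to 6.70 in controls, with 7.08, 6.53 and 6.35 in stage I and 6.88, 7.02 and 7.22 in stage II. Stage II lay above all controls, and stage I replicate 1 lay within the stage II range. It rose 1.55-fold (log2 0.63 ± 0.17 SE, limma adjusted p = 0.020), and the call ended without stage II replicate 3 (0.54, adjusted p = 0.11). Cxcl11, which RefSeq lists as a transcribed pseudogene in mouse, had a difference of -0.08 ± 0.11 SE (adjusted p = 0.67). The T and NK cell markers gave 0 calls in 13 in stage II, beside 21% of all genes called, with 1 marker at an unadjusted p under 0.05. Their summed level ran from 9.05 to 9.33 in controls and from 9.07 to 9.26 in stage II.

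Of the 15 CC ligands 2 rose in stage II and 1 fell, beside 9.81% and 11.2% of all genes. Ccl17, which attracts T cells through Ccr4 and is typically made by dendritic cells and macrophages, ran from 5.57 through 5.91 to 6.68 in controls. It was at 6.43, 6.30 and 5.96 in stage I and at 7.49, 7.06 and 6.69 in stage II. The lowest stage II array was barely above the highest control, replicate 4. The rise was 2.17-fold (log2 1.12 ± 0.23 SE, limma adjusted p = 0.0049) and passed under every alternative tried. Against stage I the difference was 0.85 ± 0.26 SE (adjusted p = 0.053), which passed without control replicate 4 (adjusted p = 0.018). Its receptor Ccr4 differed by 0.11 ± 0.06 SE from control (adjusted p = 0.25), at a low control mean of 4.32. Ccl5, an attractant of T cells and monocytes, ran from 6.02 through 6.33 to 6.73 in controls, with 7.61, 6.71 and 6.61 in stage I and 6.81, 7.44 and 7.21 in stage II. Stage I replicate 1 was the highest array of all. Ccl5 rose 1.70-fold in stage II (log2 0.76 ± 0.22 SE, limma adjusted p = 0.028), and its stage I value was 0.59 ± 0.22 SE (adjusted p = 0.66). Between stages it differed by 0.18 ± 0.25 SE (adjusted p = 0.72). The stage II call ended without control replicates 2 or 3 or stage II replicates 2 or 3, with differences of 0.62 to 0.75 (adjusted p up to 0.11).

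Ccl11, eotaxin, fell. Its levels ran from 4.59 through 4.85 to 5.06 in controls, with 4.63, 4.59 and 4.87 in stage I and 4.56, 4.44 and 4.31 in stage II. All stage II arrays lay below all controls, the nearest at 4.56 against 4.59. The difference was -0.39 ± 0.11 SE (limma adjusted p = 0.026). That call ended without stage II replicate 2 (-0.39, adjusted p = 0.057) or replicate 3 (-0.32, adjusted p = 0.13), without control replicates 1 and 4 together (-0.31, adjusted p = 0.058), and with array weights (-0.25, adjusted p = 0.075). Its receptor Ccr3, the receptor of eosinophils, was at 3.85 in controls and 3.84 in stage II on average. Mast cell and eosinophil markers gave 0 calls in 6 and 0 with an unadjusted p under 0.05, beside 21% of all genes called. Their summed level was low, from 6.72 to 7.06 in controls, and signal over background was not measured.

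Promoter sequences are shown for the 4 called chemokines that the RefSeq promoter table holds, because they rose in the same ovaries. Each is the stretch of 250 bases before the gene's start in build GRCm38.p6, written 5′ to 3′ on the gene's own strand. Capitals mark matches to a kappaB motif (GGG and TTTCC with 2 bases of any kind between), a GAS motif bound by STAT factors (TTC and GAA with 3 between), an ISRE core (GAAA and GAAA with 2 between) or TATAAA, searched on both strands. Cxcl1 lies on the plus strand at chr5:90890995-90891244, Ccl17 on the plus strand at chr8:94810203-94810452, Cxcl9 on the minus strand at chr5:92328080-92328329, and Cxcl10 on the minus strand at chr5:92348890-92349139.
Cxcl1: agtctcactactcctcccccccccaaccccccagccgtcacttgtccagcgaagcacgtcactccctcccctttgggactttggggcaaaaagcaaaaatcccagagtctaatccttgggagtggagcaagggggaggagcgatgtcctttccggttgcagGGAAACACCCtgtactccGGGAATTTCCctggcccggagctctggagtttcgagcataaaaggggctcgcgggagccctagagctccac
Cxcl9: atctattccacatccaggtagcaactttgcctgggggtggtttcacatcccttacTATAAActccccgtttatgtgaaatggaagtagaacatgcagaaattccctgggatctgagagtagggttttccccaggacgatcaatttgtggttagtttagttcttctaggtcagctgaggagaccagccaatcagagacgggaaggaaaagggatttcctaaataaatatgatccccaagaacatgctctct
Cxcl10: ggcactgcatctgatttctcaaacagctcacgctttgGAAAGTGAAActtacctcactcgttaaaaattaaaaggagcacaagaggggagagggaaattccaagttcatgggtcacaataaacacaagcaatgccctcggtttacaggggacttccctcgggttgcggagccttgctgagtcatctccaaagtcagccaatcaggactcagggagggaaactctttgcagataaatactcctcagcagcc
Ccl17: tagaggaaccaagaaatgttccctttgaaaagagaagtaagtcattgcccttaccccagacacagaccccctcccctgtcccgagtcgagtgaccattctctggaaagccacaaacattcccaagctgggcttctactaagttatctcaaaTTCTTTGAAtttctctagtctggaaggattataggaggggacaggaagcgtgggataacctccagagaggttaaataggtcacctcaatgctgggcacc
Cxcl1 held 2 kappaB matches, GGAAACACCC at 89 to 80 and GGGAATTTCC at 71 to 62 bases before the start. Cxcl10 held 1 ISRE core match, GAAAGTGAAA, at 213 to 204 bases, Ccl17 held 1 GAS match, TTCTTTGAA, at 99 to 91 bases, and Cxcl9 held TATAAA at 195 to 190 bases. The 4 windows thus shared no match to the motifs as spelled above. Looser forms of these motifs were not searched, so sites of other spelling are not marked. Of 71 promoters listed for 60 of the 83 genes, 7 (9.86%) held a kappaB match, beside 1.41% of all 32851 promoters in the table. These 7 belonged to Ccl20, Ccl9, Ccr3, Cxcl1, Il16, Il17rc and Il1rn, of which Cxcl1 and Il17rc were called. GAS matches stood in 11.3% of member promoters and 7.02% of all, ISRE core matches in 2.82% and 2.98%, and TATAAA in 22.5% and 12.4%. No kappaB match overlapped an ISRE core match in these 71 windows.

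Many chemokine genes stand in clusters. In the RefSeq order of protein-coding genes, 82 of the 83 genes were placed, and 10 runs of 2 to 6 members stood side by side, each with at most 1 call in stage II. That strict rule leaves out Cxcl9 and Cxcl10, which both rose and lie close together on chromosome 5 with 1 other protein-coding gene between them. On chromosome 11, Ccl5 was called in a run with Ccl9, Ccl6, Ccl3 and Ccl4, whose stage II differences were 0.21, -0.04, -0.08 and 0.10 and were not called. The neighbouring run of Ccl2, Ccl7, Ccl11, Ccl12, Ccl8 and Ccl1 held only the fall of Ccl11, with the monocyte attractants Ccl2 and Ccl7 at -0.06 and -0.05. Ccl17 stood with Ccl22, the other ligand of Ccr4, at 0.06, and with Cx3cl1 at 0.07.

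**Figure D2:**
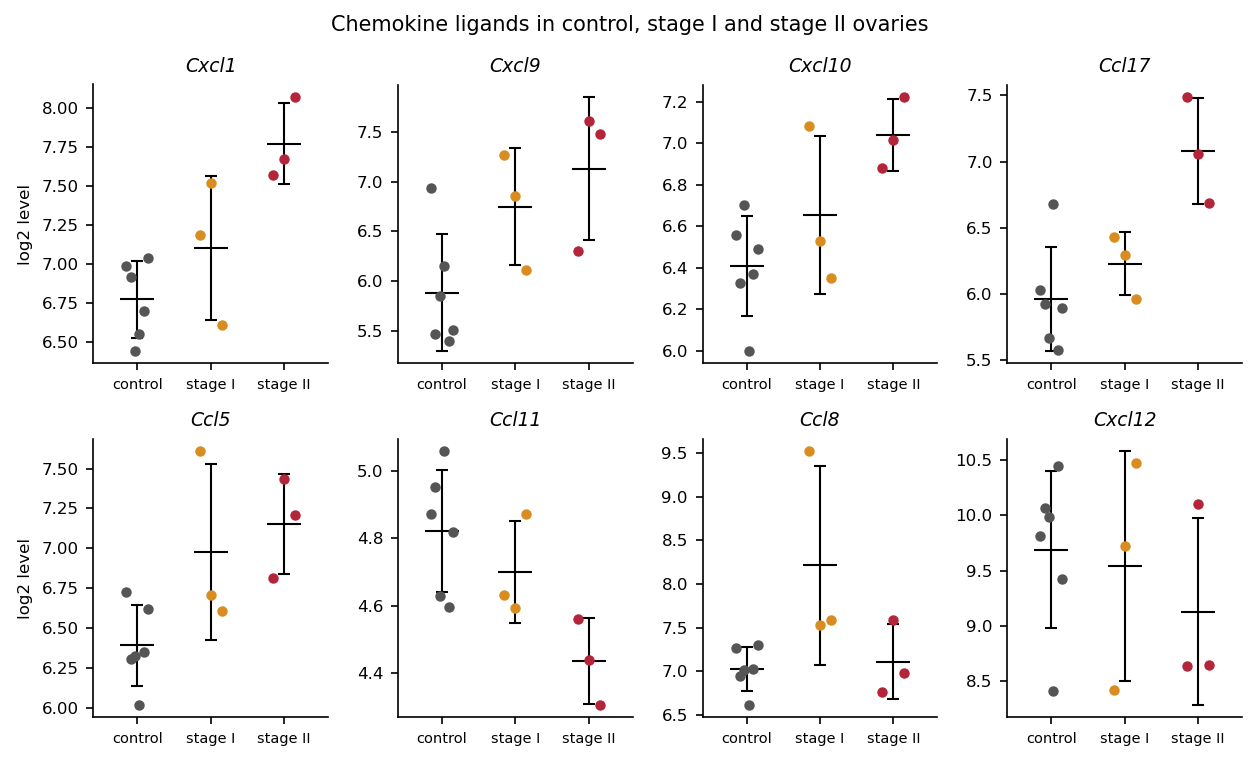
Log2 levels of 8 chemokine ligands in each array (dots), with the group mean and standard deviation (bars; 6 control, 3 stage I and 3 stage II arrays). In Cxcl1, Cxcl10, Ccl17 and Ccl5 the 3 stage II arrays lie above all 6 controls; in Ccl8 a single stage I array is at 9.52, and in Cxcl12 the groups overlap widely.

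Ccl8 and Cxcl12 were not called and varied widely between arrays of a group. Ccl8, a monocyte and T cell attractant, ran from 6.62 through 7.02 to 7.30 in controls, with 9.52, 7.53 and 7.59 in stage I and 6.77, 7.59 and 6.98 in stage II. All stage I arrays lay above all controls, and replicate 1 lay far above the other stage I arrays. The stage I difference was 1.18 ± 0.37 SE (limma adjusted p = 0.49), and 0.53 without replicate 1. Cxcl12, the stromal ligand of Cxcr4, ran from 8.41 to 10.45 in controls, from 8.42 to 10.47 in stage I and from 8.64 to 10.10 in stage II. Its standard deviation was 0.71, 1.04 and 0.84 in the 3 groups, wide beside its stage II difference of -0.56 ± 0.50 SE (adjusted p = 0.48). Cxcl14, a ligand of epithelium and stroma, differed by -0.56 ± 0.24 SE (adjusted p = 0.13), and its second probe set by -0.50 (adjusted p = 0.11).

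Over the 12 chemokine receptors the stage II differences from control ran from -0.14 in Ccr2, the monocyte receptor, to 0.57 in Ccr1, with a median of 0.02. Ccr1, which binds Ccl5 among others, ran from 5.52 through 5.66 to 5.78 in controls, with 5.48, 5.62 and 4.98 in stage I and 5.93, 5.73 and 6.98 in stage II. The stage II mean rested on replicate 3. The difference was 0.57 ± 0.23 SE from control (limma adjusted p = 0.095) and 0.85 ± 0.26 SE from stage I (adjusted p = 0.051). The first of these was 0.81 and passed without stage II replicate 2 (adjusted p = 0.028), and was 0.18 without replicate 3 (adjusted p = 0.48). Its dimmer probe set gave 0.15 (adjusted p = 0.39). Cxcr6, the receptor of Cxcl16, was at 6.58 in stage I replicate 1 and between 5.53 and 5.97 elsewhere, except in control replicate 4 at 5.03.

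Il34, a ligand of the macrophage receptor Csf1r, had the smallest adjusted p of the 83 genes. It ran from 5.72 through 5.94 to 6.34 in controls, with 6.33, 6.09 and 6.22 in stage I and 7.09, 6.93 and 7.85 in stage II. Every stage II array lay above every other array, and stage I lay inside the control range. Il34 was 2.42-fold higher in stage II than in controls (log2 1.27 ± 0.19 SE, limma adjusted p = 0.00059) and 2.11-fold higher than in stage I (1.07 ± 0.22 SE, adjusted p = 0.0092). The first call passed under every alternative, with values from 0.99 to 1.45. The second was lost only when the 2 stages were fitted alone (adjusted p = 0.054). The receptor gene Csf1r had means of 10.11 in controls, 10.57 in stage I and 10.59 in stage II, a difference of 0.48 ± 0.10 SE in stage II (adjusted p = 0.0056) and 0.46 ± 0.10 SE in stage I (adjusted p = 0.15). Of 10 macrophage and monocyte markers 6 rose in stage II and 0 fell, beside 9.81% and 11.2% of all genes. Without stage II replicate 3, 3 rose, and without control replicates 1 and 4, 3 rose. Cd14, which helps Toll-like receptors sense lipopolysaccharide, rose by 2.51 ± 0.21 SE (limma adjusted p = 6.2e-06). Cybb, a subunit of the phagocyte oxidase, rose by 0.91 ± 0.19 SE (adjusted p = 0.0060). All 10 markers lay above control in stage I too, with a median difference of 0.38. There 5 had an unadjusted p under 0.05 and 0 were called. Between stages the median difference of these markers was 0.08, with 1 call. Their summed log2 level ran from 12.70 to 12.97 in controls, from 12.69 to 13.43 in stage I and from 13.15 to 13.37 in stage II. More macrophages and more RNA per macrophage cannot be told apart in whole ovaries, and the part of these cells in the chemokine and Il34 values was not tested.

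Among the IL-1 family, Il18, an inflammasome-processed cytokine that drives interferon gamma, fell in stage II. Its levels ran from 8.94 through 9.30 to 9.58 in controls, with 8.89, 8.96 and 9.06 in stage I and 8.58, 8.89 and 8.20 in stage II. Stage II lay below all controls, the nearest at 8.89 against 8.94. The difference was -0.72 ± 0.17 SE (limma adjusted p = 0.013), and the call ended without stage II replicate 3 (-0.54, adjusted p = 0.088). Its receptor chains Il18r1 and Il18rap differed by 0.06 ± 0.11 SE (adjusted p = 0.74) and 0.20 ± 0.11 SE (adjusted p = 0.24). Of 4 measured inflammasome genes 1 rose, the adaptor Pycard (0.62 ± 0.11 SE, adjusted p = 0.0023), beside 9.81% of all genes. Il1f9, which encodes IL-36 gamma, an epithelial cytokine, ran from 4.92 through 5.17 to 5.30 in controls, with 5.30, 5.39 and 5.10 in stage I and 5.35, 5.66 and 5.41 in stage II. It was 1.26-fold higher in stage II (0.33 ± 0.11 SE, limma adjusted p = 0.048). Removal of any 1 array among control replicates 2, 5 and 6, stage I replicates 1 and 2, and all stage II arrays ended that call, with differences of 0.24 to 0.39 (adjusted p up to 0.18). So did quantile normalization, centred medians, the compared groups alone and the trended prior (adjusted p of 0.051 to 0.071). The neighbouring genes Il1f8, Il1f6 and Il1f5 had differences of -0.06, 0.15 and 0.04. Il33, an alarmin of stromal and endothelial cells, varied from 6.40 to 7.93 among controls and differed by 0.18 ± 0.33 SE (adjusted p = 0.76). Il1a and the receptor antagonist Il1rn had differences of -0.04 and -0.14.

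**Figure D3:**
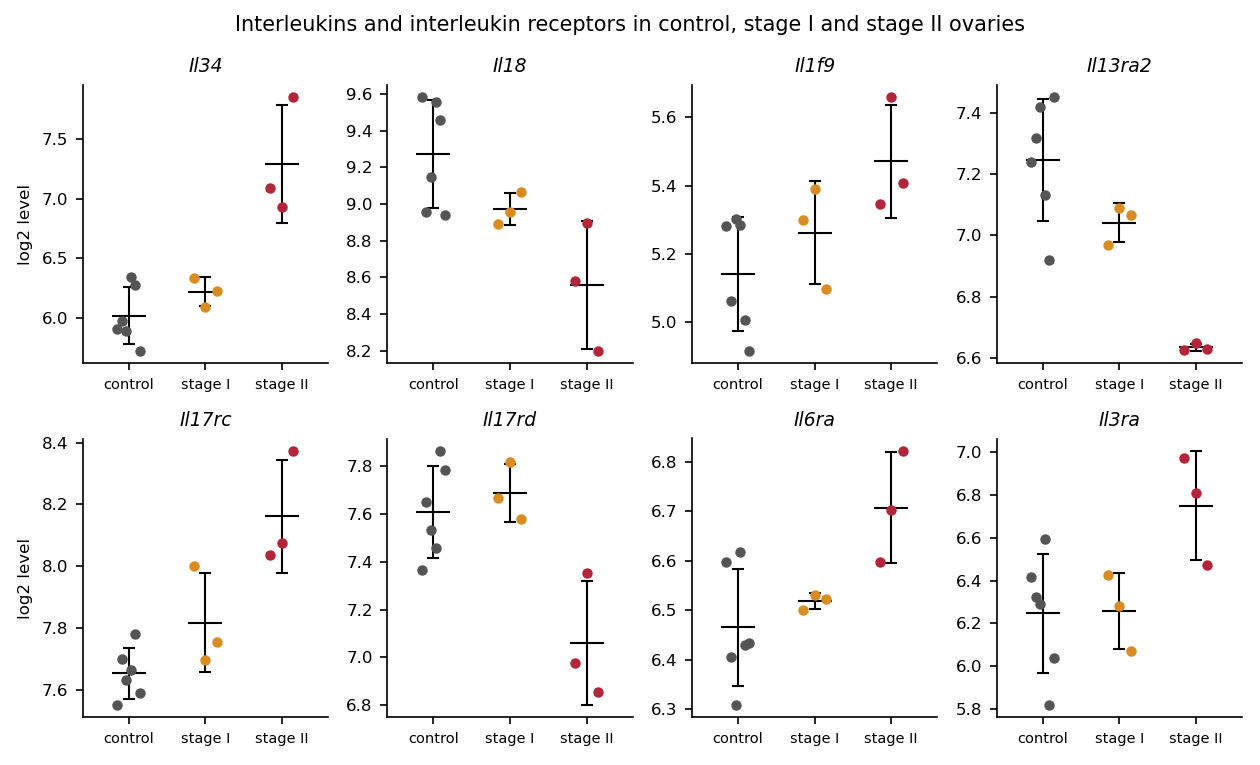
Log2 levels of the 8 called interleukins and interleukin receptors in each array (dots), with the group mean and standard deviation (bars; 6 control, 3 stage I and 3 stage II arrays). Il34 reaches 6.93 to 7.85 in stage II against at most 6.34 elsewhere, and the 3 stage II arrays of Il13ra2 lie between 6.63 and 6.65, below all others.

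The IL-17 receptor family held genes that moved in opposite directions. Il17rc, the chain that pairs with Il17ra to bind IL-17A and IL-17F, ran from 7.55 through 7.65 to 7.78 in controls, with 8.00, 7.70 and 7.75 in stage I and 8.04, 8.08 and 8.37 in stage II. All stage II arrays lay above all others, and stage I replicate 1 was close below them. It rose 1.42-fold over control (0.51 ± 0.09 SE, limma adjusted p = 0.0021), a call that held under every alternative other than the 2-fold floor. Against stage I it was 0.34 ± 0.10 SE higher (adjusted p = 0.049). This second call ended without any single control, without stage I replicates 2 or 3 and without stage II replicate 3, with differences of 0.24 to 0.34 (adjusted p up to 0.19), and with either rescaling (adjusted p = 0.053). It also ended with the 2 stages fitted alone (limma adjusted p = 0.15), the replicate block (0.14) and all probe sets tested (0.052). The same held without control replicates 1 and 4 together (0.058). Il17ra itself differed by -0.39 ± 0.14 SE from control (adjusted p = 0.074), which passed without control replicate 5 (-0.45, adjusted p = 0.043). Il17re, the neighbour of Il17rc on chromosome 6, differed by 0.14 (adjusted p = 0.43), and the ligand Il17a by 0.14 ± 0.08 SE (adjusted p = 0.27).

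Il17rd, a transmembrane inhibitor of FGF signalling, fell in stage II. Its levels ran from 7.36 through 7.59 to 7.86 in controls, with 7.67, 7.82 and 7.58 in stage I and 6.98, 7.35 and 6.85 in stage II. The highest stage II array was just under the lowest control, at 7.35 against 7.36, and stage I lay inside the control range. The difference was -0.55 ± 0.13 SE from control (limma adjusted p = 0.010) and -0.63 ± 0.15 SE from stage I (adjusted p = 0.018). Without stage II replicate 3 these were -0.44 (adjusted p = 0.071) and -0.52 (adjusted p = 0.082). The second also ended without stage I replicate 2 (-0.56, adjusted p = 0.074) or stage II replicate 1 (-0.58, adjusted p = 0.055), and with the 2 stages fitted alone (adjusted p = 0.058).

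Il13ra2, the decoy receptor of IL-13, had the tightest stage II group. It ran from 6.92 through 7.28 to 7.45 in controls, with 6.97, 7.09 and 7.07 in stage I and 6.63, 6.65 and 6.63 in stage II. Stage II lay below every other array. Il13ra2 fell by 0.61 on the log2 scale from control (± 0.10 SE, limma adjusted p = 0.0014), a call kept under every alternative but the 2-fold floor, and by 0.41 from stage I (± 0.12 SE, adjusted p = 0.041). The call between stages ended without control replicates 1 or 2 or any 1 of the 6 tumor arrays, with differences of -0.44 to -0.38 (adjusted p up to 0.12). The signalling receptor Il13ra1 and the shared chain Il4ra differed by -0.13 (adjusted p = 0.54) and -0.32 ± 0.17 SE (adjusted p = 0.22) from control. The ligand Il13 differed by 0.08 ± 0.09 SE (adjusted p = 0.58).

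Smaller rises were called in a pair of alpha chains. Il3ra, which binds IL-3, ran from 5.82 through 6.31 to 6.59 in controls, with 6.42, 6.28 and 6.07 in stage I and 6.97, 6.81 and 6.47 in stage II. It was 1.42-fold higher in stage II (0.51 ± 0.16 SE, limma adjusted p = 0.042). Stage II replicate 3 lay below the 6.59 of control replicate 4, so the groups overlapped. Removal of any 1 array among control replicates 2, 3, 5 and 6, stage I replicate 2, and stage II replicates 1 and 2 ended that call, with differences of 0.39 to 0.52 (adjusted p up to 0.17), as did quantile normalization and the compared groups alone (adjusted p up to 0.059). Il6ra, the IL-6 receptor, ran from 6.31 through 6.43 to 6.62 in controls, with 6.50, 6.53 and 6.52 in stage I and 6.60, 6.70 and 6.82 in stage II. It was 1.18-fold higher (0.24 ± 0.08 SE, limma adjusted p = 0.040), with stage II replicate 1 inside the control range. The Il6ra call was lost on removing 1 array from among control replicates 2, 3, 5 and 6, replicates 2 and 3 of stage I, and replicates 2 and 3 of stage II, with differences of 0.19 to 0.24 (adjusted p up to 0.20). It was also lost under quantile normalization, centred medians, the compared groups alone and the trended prior (adjusted p of 0.053 to 0.070).

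Single ovaries differed in how many of the 83 genes left the control range. Stage I replicate 1 had 20 above and 14 below all 6 controls, replicate 2 had 18 and 6, and replicate 3 had 6 and 8. Stage II replicates 1, 2 and 3 had 17, 16 and 27 above and 13, 15 and 11 below. Over all genes tested, 19.1%, 16.4% and 29.4% lay above the controls in the 3 stage II ovaries, beside 20.5%, 19.3% and 32.5% of the 83. Below the controls the shares in stage II were 25.6%, 24.2% and 29.0% of all genes and 15.7%, 18.1% and 13.3% of the 83. In stage I replicates 1, 2 and 3, 16.7%, 16% and 11.4% of all genes lay above the controls, beside 24.1%, 21.7% and 7.23% of the 83. Below the controls were 17.2%, 13.4% and 12.1% of all genes and 16.9%, 7.23% and 9.64% of the 83. Replicate 3 thus lay under the all-gene share on both sides, and the stage I ovaries did not run the same way.

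Genes that carry these signals were called in both directions in stage II, beside 9.81% of all genes called higher and 11.2% lower. In stage I limma called 0 in each of these lists, with 0 to 3 genes a list at an unadjusted p under 0.05. Of 13 JAK, STAT and SOCS genes 2 rose and 3 fell, with a median difference of 0.02. Stat5a and Stat5b, which act downstream of prolactin as well as IL-2 type receptors, fell (-0.82 ± 0.16 SE, limma adjusted p = 0.0035, and -0.44 ± 0.11 SE, adjusted p = 0.017), and Stat6, the IL-4 and IL-13 mediator, rose (0.24 ± 0.06 SE, adjusted p = 0.0087). Of 18 IL-1 receptor adaptor and NF-kappaB genes 3 rose and 2 fell, the largest being Irak3, an inhibitor of IL-1 and Toll-like receptor signalling (0.63 ± 0.11 SE, adjusted p = 0.0019), and Nfkbiz (0.50 ± 0.15 SE, adjusted p = 0.033). Of 10 other cytokine ligands 2 rose and 1 fell, with Lif, an IL-6 type cytokine, 2.20-fold higher (adjusted p = 0.00026). Of 9 chemokine receptor signalling genes 2 rose and 1 fell, with Arrb2, an arrestin that desensitizes these receptors, 0.59 ± 0.08 SE higher (adjusted p = 0.00032). Without stage II replicate 3, Stat5b (-0.38, adjusted p = 0.098), Stat6 (0.20, adjusted p = 0.050), Nfkbiz (0.53, adjusted p = 0.090) and Sdc1 (-1.24, adjusted p = 0.050) were not called. Without it 0 JAK, STAT and SOCS genes rose and 1 fell, and 1 IL-1 receptor adaptor and NF-kappaB gene rose and 0 fell. Of 11 chemokine-related genes outside the 83, 1 rose, Cklf, and 1 fell, Sdc1 (-1.28 ± 0.30 SE, adjusted p = 0.0099). Sdc1 is a heparan sulfate proteoglycan gene and no chemokine, and it is counted again among the B and plasma cell markers.

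Markers of other cells that could supply these transcripts moved as follows in stage II. Beside them, 9.81% of all genes were called higher and 11.2% lower. Of 7 fibroblast and stroma markers 6 fell and 0 rose, of 8 smooth muscle and pericyte markers 5 fell, and of 6 granulosa cell markers 5 fell (4, 4 and 3 without stage II replicate 3). All 7 oocyte markers fell (6 without it), as did 3 of the 4 theca or interstitial cell genes (2 without it). Of 5 surface and tumor epithelium markers 1 rose, the keratin gene Krt8 (3.59 ± 0.32 SE, limma adjusted p = 1e-05), and 1 fell, Lgals7 (-0.67 ± 0.17 SE, adjusted p = 0.014). Their summed level ran from 10.34 to 11.51 in controls, from 11.20 to 11.65 in stage I and from 12.42 to 13.62 in stage II. The median stage II difference of the 5 markers was -0.40, with 2 above 0 and 3 below. Without control replicates 1 and 4 together, 3 of them fell and 1 rose. Without stage II replicate 3, 0 of them fell and 1 rose. Of 3 adipocyte markers Fabp4, a fatty acid binding protein that macrophages also make, rose (2.47 ± 0.45 SE, adjusted p = 0.0026) and Adipoq, the adiponectin gene, fell (-3.34 ± 0.66 SE, adjusted p = 0.0042). The summed level of these 3 genes ran from 8.22 to 11.11 in controls and from 11.48 to 12.17 in stage II. Of their stage II differences 1 was above 0 and 2 were below, with a median of -0.002. Of 6 oviduct and 3 luteal markers 0 were called, with 2 and 1 at an unadjusted p under 0.05. Of 6 endothelial markers 0 were called, with 1 at an unadjusted p under 0.05, and 2 rose without control replicates 1 and 4. Itgax was the 1 dendritic cell marker of 5 that rose (0.34 ± 0.06 SE, limma adjusted p = 0.0029), and Sdc1, a gene of many epithelia too, was the 1 of 8 B and plasma cell markers that fell. Array levels have no zero, so no marker was at 0, and the part of these cells in the values of the 14 called genes was not tested.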

How the data were processed

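RNA was extracted from ovaries with Trizol and columns and labelled with biotin, per the labels' protocols. The authors deposited log2 values, 1 per probe set and array, by summary and normalization steps not given in the sources used here. That they are on a log2 scale was taken from their range (2.69 to 14.44, array medians 7.09 to 7.15). Of 16376 probe sets, 14674 had 1 symbol in the platform annotation, 427 several and 1275 none, and the first kind gave 10949 genes. Detection calls were not used, so low levels have no measured background; 35 of the 83 genes lay in the lowest 25% of mean levels.

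One limma 3.58.1 model (lmFit, eBayes; R 4.3.3) held a mean for each group of 6, 3 and 3 arrays, with Benjamini-Hochberg adjustment and no filter. The script was tested on simulated data. Names follow the rule of all called members, the largest uncalled differences per role, their ligands or receptors, and the leading list genes; Ccl2, Ccl3, Ccl4, Ccl6, Ccl7, Ccl9, Ccl22, Cx3cl1, Cxcl5, Cxcl11, Il17re, Il13ra1, Il1a, Il1rn, Il1f5, Il1f6, Il1f8, Csf1r, Inha and Zp3 were added as relatives or neighbours after values were seen. Members and lists were chosen with earlier results of these data known. A list's summed level is the log2 of its summed linear levels. Promoters are from RefSeq, GRCm38.p6. The alternatives were quantile normalization, centred medians, a filter on dim genes, means of probe sets, all probe sets, compared groups alone, array weights, a trended robust prior, the replicate block, single arrays or control replicates 1 and 4 left out, and a 2-fold floor.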

Additional observations from a re-analysis of the deposited data

Results flagged for a closer look

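Probe sets with several symbols were outside the comparisons, and 1 of the 5 that hold a chemokine or interleukin symbol passed the threshold. It reads the Ccl21 genes together (Ccl21a, Ccl21b, Ccl21c and Ccl21d), which encode the ligand of Ccr7 on dendritic cells and naive T cells and are too alike to separate. The 6 controls had a level of 11.17 ± 0.11 SD, while the 3 stage I arrays had 11.20 ± 0.06 and the 3 stage II arrays 10.57 ± 0.41. Stage II differed by -0.596 from control (± 0.14 SE, limma adjusted p = 0.0093 over 15101 probe sets) and by -0.622 from stage I (± 0.16 SE, adjusted p = 0.025). Without stage II replicate 3 these were -0.36 (adjusted p = 0.016) and -0.39 (adjusted p = 0.032).

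Among 37 named genes, 3 had 1 control far from the other 5 by Dixon's ratio, which flags about 1 group in 20 by chance. Cxcr6 was low in control replicate 4 (5.03 against 5.70 to 5.97). Il20 was high in control replicate 4 (5.74 against 5.18 to 5.35). Il17a was low in control replicate 6 (4.66 against 4.85 to 4.94).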

How the results depend on the processing

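Of the 83 genes, 0 were called in stage I under every alternative, while all genes called there numbered 6 with the replicate block, 13 without control replicates 1 and 4 and 15 to 28 with single arrays left out. In stage II against control the 14 calls became 8 with the replicate block, 3 at 2-fold or more and 6 to 15 with single arrays left out, and after quantile normalization 7 were higher and 5 lower. All genes called, 2302, became 1090 with the block, 274 at 2-fold and 1145 to 2432 with single arrays left out. Between stages the 4 calls became 1 with the 2 stages fitted alone, 10 with array weights, 1 at 2-fold and 1 to 4 with single arrays left out, and 1 higher and 2 lower with centred medians. All genes called, 1370, became 393 with the stages alone, 2308 with array weights, 602 with the block, 206 at 2-fold and 605 to 1610 with single arrays left out, and after quantile normalization 684 were higher and 936 lower, against 716 and 654. The fold floor calls fewer genes by construction, and the cause of the other shifts was not tested. Replicate numbers were not taken as pairs. Over 9 same-numbered pairs of arrays the correlation of deviations ran from -0.132 to 0.204, and 3 pairs were above 0.1. The replicate block fits a term for each replicate number. Control replicates 4 to 6 have no tumor array of their number, so they added nothing to its comparisons with control. In that block Ccl11, Ccl5, Cxcl10, Cxcl9, Il18, Il1f9 and Il6ra lost their stage II calls and Il17ra gained one. Of 18 calls among named genes, 5 passed under every alternative other than the fold floor, which was applied to the counts only. They were Il34, Il13ra2, Il17rc, Cxcl1 and Ccl17 in stage II against control, of which Il34 and Ccl17 also reached 2-fold. No called difference turned its direction, and 49 of 1912 alternative values, all of uncalled differences, changed sign. Of the 14 called genes 2, Ccl11 and Il1f9, lay in the lowest 25% of mean levels, and signal over background was not measured here.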
